A study of Mus musculus with 6 samples.

Results

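The genes described here encode 10 surface molecules that B cells display when they are activated and through which they stimulate or restrain T cells: Cd80, Cd86, Cd274, Pdcd1lg2, Icosl, Cd70, Cd69, Cd83, Cd200 and Slamf1. They were chosen by their gene symbols in the array's annotation, and all 10 were among the 18193 genes measured. They have 17 of the 45037 probe sets, and each gene is represented by its probe set with the highest mean over the 6 arrays. Gene expression was measured on Affymetrix arrays in splenic B cells of 3 Crebbp-deleted mice (CBPΔ/Δ x EµBcl2) and 3 Crebbp-floxed mice (CBPF/F x EµBcl2), 1 array per mouse. Crebbp encodes a histone acetyltransferase and transcriptional coactivator, and the comparison asks what its loss changes in B cells with excess Bcl2. Mice of both groups carry the EµBcl2 transgene, which drives the anti-apoptotic protein Bcl2 from an immunoglobulin enhancer. The floxed mice carry Crebbp flanked by recombination sites. The recombinase, the cells in which it acts and the age of the mice are not given in the sources used here. Spleen cells were frozen alive and thawed, and B cells were then isolated untouched by removing cells that bind CD43 beads. CD43 is absent from most resting B cells and is carried by plasma cells, B-1 cells and many activated B cells. The isolation can therefore remove some of the cells in which these genes are induced. What it removed was not measured here.

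A T cell that meets antigen on a B cell reads further signals from the B cell surface. CD80 and CD86 bind CD28, which promotes T cell activation, and CTLA-4, which restrains it. The ligands PD-L1 (Cd274) and PD-L2 (Pdcd1lg2) engage the inhibitory receptor PD-1, ICOSL engages ICOS on follicular helper T cells, and CD70 engages CD27. CD69 and CD83 mark recently activated lymphocytes, CD200 delivers an inhibitory signal to myeloid cells, and SLAMF1 binds itself across the contact between lymphocytes. Most of these genes are induced by B cell receptor, CD40 or Toll-like receptor signals through NF-kB and related factors, and macrophages and dendritic cells express several of them too.

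Median log2 intensities of the 6 arrays lay between 4.27 and 4.29. Precision is limited by the number of arrays. Crebbp had lower means in Crebbp-deleted samples at 4 of 4 probe sets, with log2 differences between −0.97 and −0.50, and the groups did not overlap at any of them. Of these, 1 probe set passed limma when all probe sets were tested (adjusted p = 0.033). Where they lie relative to the deleted part was not analysed here. Summed intensities of cell type markers also moved with genotype. B cell markers (7 measured genes) summed to 16714.5 to 18129 in deleted samples, against 21625 to 26537 in floxed samples, and the receptor chain gene Cd79a fell by 1.11 log2 units (limma adjusted p = 0.0093). Cd79a, a defining B cell marker, had log2 intensities of 10.77 to 10.88 in deleted samples and 11.77 to 12.04 in floxed samples. It had the largest fall of the 7 and was the only 1 to pass. All 7 differences were negative, with a median of −0.31, and the other receptor chain gene, Cd79b, differed by −0.07 (limma adjusted p = 0.808). Plasma cell markers (8 genes) summed to 12029 to 18646 in deleted samples, against 6012 to 6859.5 in floxed samples, and Jchain, which joins polymeric antibodies, rose by 1.65 log2 units (limma adjusted p = 0.011). Macrophage and monocyte markers (13 genes) summed to 1499 to 3554 in deleted samples and 495 to 1643 in floxed samples, with the groups overlapping. Of their 13 differences 12 were positive and 1 was negative, with a median of 1.48 log2 units. The groups did not overlap in 4 of the 13 (21.2% of all genes). An unadjusted limma p under 0.05 was reached by 8 (14.8% of all genes), and 0 passed after adjustment. Dendritic cell markers (9 genes) summed to 1343.5 to 2543 in deleted samples and 1554 to 3486 in floxed samples. These sums were mostly Ccr7, whose mean log2 intensity of 10.75 was far above the next, 6.79 for Flt3. Ccr7 differed by −0.39 log2 units (limma adjusted p = 0.725). Taken singly, 6 dendritic markers had higher means in deleted samples and 3 had lower ones. Batf3 had the largest difference, 0.83 log2 units, with groups that did not overlap (limma adjusted p = 0.145). T cell markers (8 genes) summed to 254 to 292 in deleted samples and 174 to 276 in floxed samples, and NK cell markers (5 genes) to 91.5 to 136 in deleted samples and 76.7 to 196 in floxed samples. No marker is at 0, since the deposited intensities have none. The part of these cell types in the results below was not tested, and in such bulk samples fewer cells of a type and less RNA per cell cannot be told apart.

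None of the 10 genes passed the test between Crebbp-deleted and Crebbp-floxed B cells (0 of 10, limma with Benjamini-Hochberg adjustment over all genes, threshold 0.05). In the same fit 142 of 18193 genes, 0.781%, passed. Adjusted p-values of the 10 genes ran from 0.145 for Pdcd1lg2 to 0.919 for Cd274. Before adjustment, 2 of the 10 genes had a limma p under 0.05, Pdcd1lg2 and Cd200, both with lower means in deleted samples, and so had 14.8% of all genes. The groups did not overlap in 1 of the 10, Pdcd1lg2, against 21.2% of all genes. The means of 7 genes were higher in deleted samples and those of 3 were lower, with a median log2 difference of 0.24, where the median over all genes was 0.01 and 53.4% of genes had a positive difference. When every probe set was tested, 0 of the 17 passed limma (0.411% of all probe sets did), 3 had an unadjusted p under 0.05 (13.6% of all probe sets), and 2 had groups that did not overlap (19.8% of all probe sets). The 95% confidence interval of the difference lay within 1 log2 unit of 0 on both sides for 4 genes, Cd274, Icosl, Cd70 and Cd69, and reached beyond it for the other 6.

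**Figure D1:**
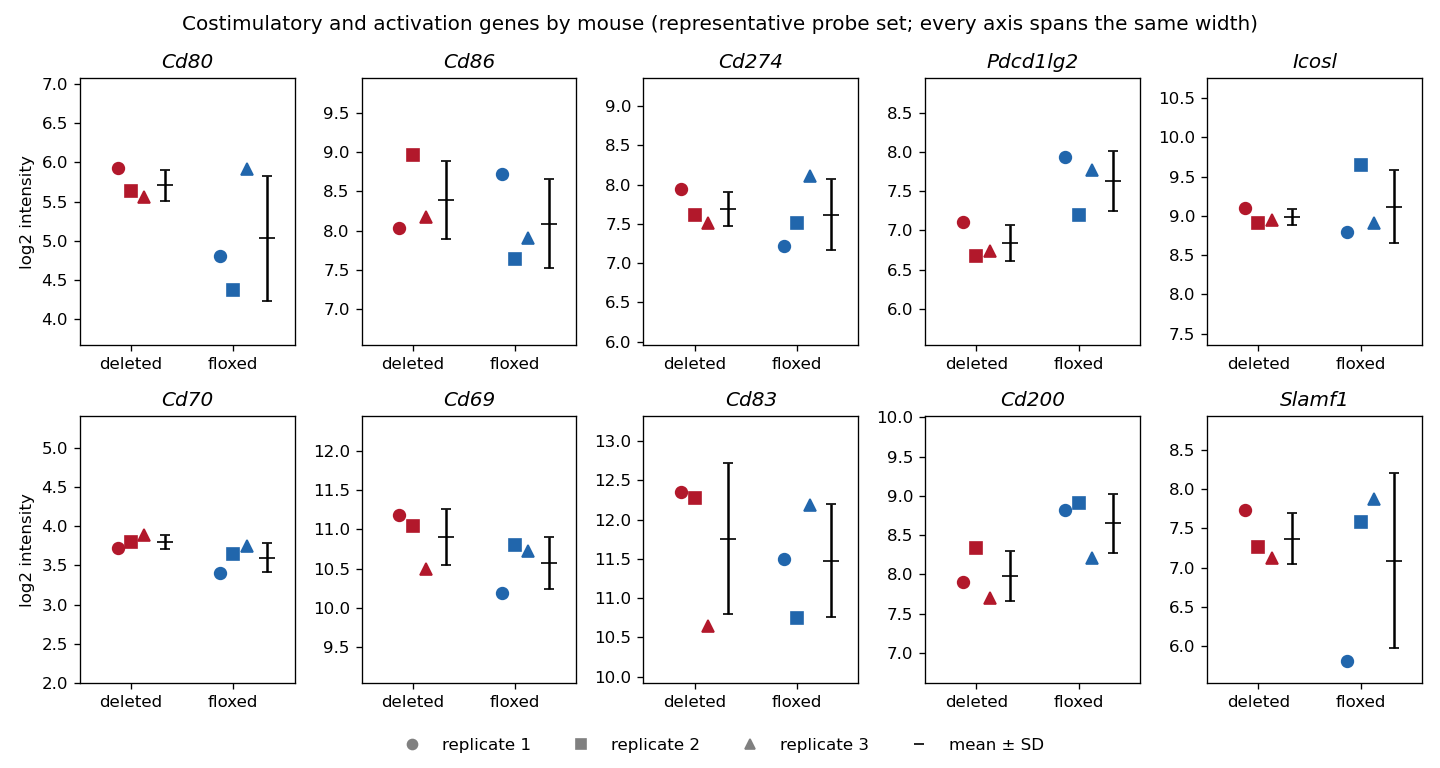
Log2 intensity (y axis) of each of the 10 genes in the 3 Crebbp-deleted mice (red, left) and the 3 Crebbp-floxed mice (blue, right), 1 point per mouse, with the mean ± SD in black. All 3 deleted mice lie below all 3 floxed mice for Pdcd1lg2, and the groups overlap for the other 9 genes.

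Of the ligands of PD-1, PD-L2 had a lower mean in deleted samples and PD-L1 nearly equal means, and neither passed the test. Pdcd1lg2, which encodes PD-L2, had log2 intensities of 7.11, 6.68 and 6.74 in Crebbp-deleted B cells, against 7.93, 7.20 and 7.77 in Crebbp-floxed B cells. All deleted mice lay below all floxed mice, although the highest deleted value and the lowest floxed value were close. The mean was 6.84 ± 0.23 in deleted samples and 7.63 ± 0.39 in floxed samples (SD, n = 3 each). The log2 difference of −0.79 ± 0.21 (SE), with a 95% interval from −1.27 to −0.31, did not pass after adjustment (limma adjusted p = 0.145). Over 18 alternative settings its difference stayed between −1.01 and −0.64, with limma adjusted p-values from 0.058 to 0.712. Cd274, which encodes PD-L1, had log2 intensities of 7.94, 7.62 and 7.52 in deleted samples, against 7.23, 7.52 and 8.11 in floxed samples. The deleted values lay inside the range of the floxed ones. Its log2 difference was 0.07 ± 0.23 (SE), with a 95% interval from −0.46 to 0.61 (limma adjusted p = 0.919). Whether the differences of these 2 genes differ from each other was not tested.

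Cd274 and Pdcd1lg2 are next to each other among the coding genes of chromosome 19. Their promoter windows, 250 bases before to 50 bases after the gene start in RefSeq's table for GRCm38.p6, are printed because these neighbouring genes code for ligands of the same receptor. The windows lie at chr19:29367188-29367487 and chr19:29410669-29410968, both on the plus strand.
Cd274: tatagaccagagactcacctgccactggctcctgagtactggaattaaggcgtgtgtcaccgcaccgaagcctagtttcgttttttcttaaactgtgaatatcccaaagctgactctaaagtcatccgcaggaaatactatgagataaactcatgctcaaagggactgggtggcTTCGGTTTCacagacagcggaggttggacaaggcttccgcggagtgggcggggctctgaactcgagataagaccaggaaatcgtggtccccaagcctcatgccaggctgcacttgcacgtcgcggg
Pdcd1lg2: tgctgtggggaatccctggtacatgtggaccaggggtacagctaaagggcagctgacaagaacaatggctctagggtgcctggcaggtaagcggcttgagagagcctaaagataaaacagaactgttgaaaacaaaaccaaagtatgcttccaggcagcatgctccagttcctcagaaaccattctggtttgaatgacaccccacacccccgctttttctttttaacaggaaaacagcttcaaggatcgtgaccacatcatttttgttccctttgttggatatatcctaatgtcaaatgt
Windows of 6 of the 10 genes were used, those of Cd80, Cd274, Pdcd1lg2, Icosl, Cd200 and Slamf1. They were searched on both strands for 6 motifs. These were the cAMP response element TGACGTCA, to which the Crebbp partner CREB binds, and its half-site TGACG, which the full element contains. The others were the AP-1 site TGANTCA, a kappaB site GGANTTTCC, the interferon response core GAAANNGAA and the STAT element TTCNNNGAA, and matches of the last 2 can share bases. Of 32851 windows, 1.79% held the full cAMP response element, 20.8% the half-site, 7.81% the AP-1 site, 1.25% the kappaB site, 8.56% the interferon response core and 8.30% the STAT element. The capitals in the window of Cd274 mark a match to the interferon response core, written on the reverse strand as TTCGGTTTC, with its first base at position −76 counted back from the gene start. The windows of Pdcd1lg2, Icosl and Slamf1 held none of the 6 motifs in these letters.

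The CD28 ligands had higher means in deleted samples without passing the test. Cd80 was represented by probe set 1451950_a_at, with log2 intensities of 5.93, 5.63 and 5.56 in Crebbp-deleted samples, against 4.80, 4.37 and 5.92 in Crebbp-floxed samples. The deleted mice lay close together, 2 of the floxed mice lay below them, and floxed sample 3 stood at the level of the highest deleted mouse. The log2 difference was 0.68 ± 0.36 (SE), with a 95% interval from −0.16 to 1.51 (limma adjusted p = 0.430). Leaving out floxed sample 3 gave a difference of 1.12, which passed (limma adjusted p = 0.041), and over the 18 alternatives the adjusted p ran from 0.041 to 0.935. Without floxed sample 2 the difference was 0.35. With 16 added to each intensity before log2 it was 0.46, and with the mean of all probe sets of the gene it was 0.38.

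The 4 probe sets of Cd80 gave differences of unequal size and sign. Probe set 1427717_at had log2 intensities from 3.90 to 4.09 in deleted samples, against 3.11 to 3.45 in floxed samples. Here the groups did not overlap, and the log2 difference of 0.72 ± 0.12 (SE) had the smallest p of the 17 probe sets without passing (limma adjusted p = 0.061 over all probe sets). Its mean of 3.64 is under 4.29, the median over the means of all probe sets, and no detection call was used, so the size of this difference is uncertain. Probe set 1432826_a_at differed by 0.21 log2 units (limma adjusted p = 0.884), with floxed values spread from 3.44 to 5.45. Probe set 1454372_at, the dimmest of the gene at a mean of 3.13, differed by −0.08 log2 units (limma adjusted p = 0.867).

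The promoter window of Cd80, at chr16:38458683-38458982 on the plus strand, is printed because this gene had the largest positive difference of the 10. Its capitals mark an AP-1 match whose first base lies at position −42.
Cd80: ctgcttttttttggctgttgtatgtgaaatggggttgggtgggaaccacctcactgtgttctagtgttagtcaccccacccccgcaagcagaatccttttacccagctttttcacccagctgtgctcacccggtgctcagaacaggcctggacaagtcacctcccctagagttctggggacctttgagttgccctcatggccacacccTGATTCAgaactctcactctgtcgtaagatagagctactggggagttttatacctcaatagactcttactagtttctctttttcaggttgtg
A match of this kind is a description of the letters, and 7.81% of all windows hold one.

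Cd86 had log2 intensities of 8.03, 8.96 and 8.17 in Crebbp-deleted samples, against 8.72, 7.64 and 7.90 in Crebbp-floxed samples, at probe set 1449858_at. Deleted sample 2 and floxed sample 1 were the high ones, so the groups overlapped. The log2 difference was 0.30 ± 0.33 (SE), with a 95% interval from −0.47 to 1.07 (limma adjusted p = 0.730). It was 0.016 without deleted sample 2 and 0.62 without floxed sample 1, the lowest and highest of the values with 1 mouse left out. The gene's other probe set, 1420404_at, had the same high samples and a log2 difference of 0.36 (limma adjusted p = 0.752).

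**Figure D2:**
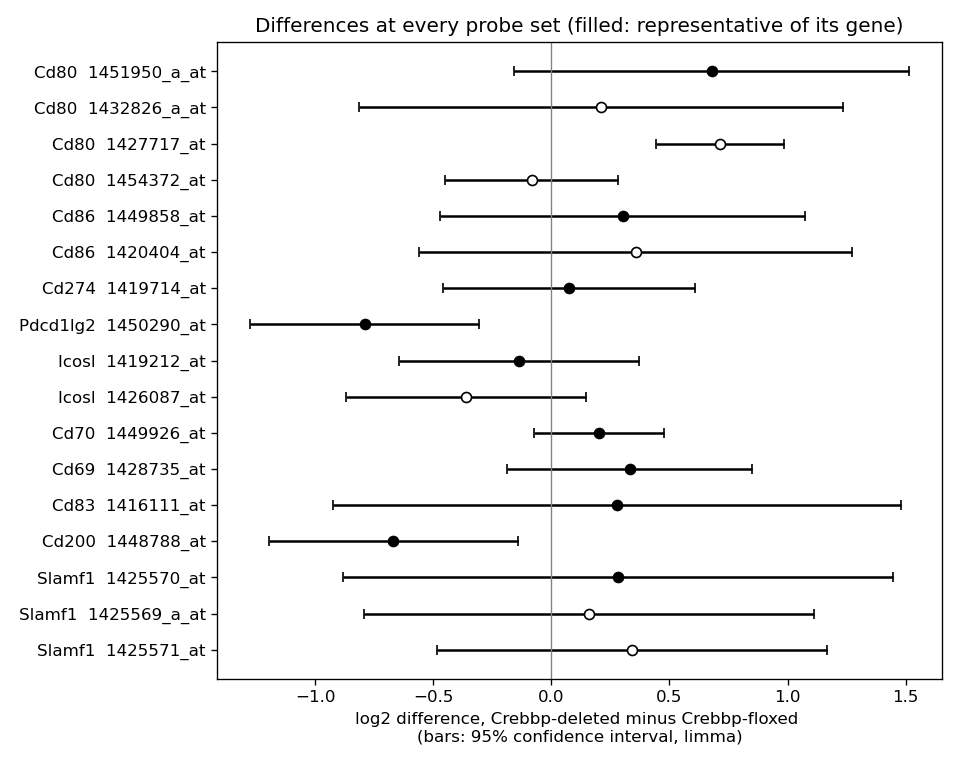
Log2 difference, Crebbp-deleted minus Crebbp-floxed (x axis), at each of the 17 probe sets of the 10 genes (rows), with bars for the 95% confidence interval from limma. Filled points mark the probe set that represents its gene. The intervals of Pdcd1lg2 and Cd200 lie below 0 and that of Cd80 probe set 1427717_at above 0, before adjustment for the number of probe sets tested, and those of the other 14 probe sets include 0.

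Icosl and Cd70, the ligands of ICOS and CD27, did not pass the test either. Icosl, at probe set 1419212_at, had log2 intensities of 9.09, 8.90 and 8.95 in deleted samples, against 8.80, 9.65 and 8.91 in floxed samples. Only floxed sample 2 stood apart, above the other 5 mice. The log2 difference was −0.14 ± 0.22 (SE), with a 95% interval from −0.64 to 0.37 (limma adjusted p = 0.828), and it was 0.13 without that sample. The dimmer probe set 1426087_at (mean 3.84) differed by −0.36 log2 units (limma adjusted p = 0.523). Cd70 had log2 intensities of 3.71, 3.80 and 3.89 in deleted samples, against 3.40, 3.64 and 3.75 in floxed samples. Its log2 difference was 0.20 ± 0.12 (SE), with a 95% interval from −0.07 to 0.47 (limma adjusted p = 0.472), and with 1 mouse left out it lay between 0.10 (without floxed sample 1) and 0.28 (without floxed sample 3). All of its values are below the median of probe set means, and no detection call was used, so the size of this difference is uncertain.

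The early activation markers Cd69 and Cd83 overlapped between the groups. Cd69, a lectin-like protein that retains lymphocytes in tissue by removing the receptor S1PR1 from the surface, had log2 intensities of 11.18, 11.04 and 10.50 in deleted samples, against 10.20, 10.80 and 10.73 in floxed samples. Deleted samples 1 and 2 were above all floxed mice, and deleted sample 3 lay below 2 of them. The log2 difference was 0.33 ± 0.22 (SE), with a 95% interval from −0.19 to 0.85 (limma adjusted p = 0.545). It was 0.14 without floxed sample 1 and 0.53 without deleted sample 3, the lowest and highest with 1 mouse left out. Cd83, which stabilises MHC class II and CD86 at the surface, had log2 intensities of 12.35, 12.27 and 10.64 in deleted samples, against 11.50, 10.75 and 12.18 in floxed samples. Deleted samples 1 and 2 were again the highest, and deleted sample 3 was the lowest of the 6 mice. Its values spanned 1.71 log2 units within the deleted group and 1.43 within the floxed group, each far larger than the log2 difference of 0.28 ± 0.51 (SE; 95% interval from −0.93 to 1.48, limma adjusted p = 0.855). Deleted sample 3 also had the highest summed plasma cell and macrophage markers of the 6 mice. Its plasma cell sum was 18646 and its macrophage sum 3554. In deleted sample 1, the mouse with the highest Cd83 and Cd69, these were 12029 and 3039. The part of those cells in these Cd83 and Cd69 values was not tested.

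Cd200 encodes a membrane glycoprotein whose receptor on myeloid cells is inhibitory. It had log2 intensities of 7.90, 8.33 and 7.70 in Crebbp-deleted samples, against 8.82, 8.91 and 8.21 in Crebbp-floxed samples. The groups overlapped through deleted sample 2 and floxed sample 3. The mean was 7.98 ± 0.32 in deleted samples and 8.65 ± 0.38 in floxed samples (SD, n = 3 each). The log2 difference of −0.67 ± 0.22 (SE), with a 95% interval from −1.19 to −0.14, did not pass after adjustment (limma adjusted p = 0.229). It was negative in each of the 18 alternatives, from −1.02 to −0.23, with limma adjusted p-values from 0.088 to 0.939. The promoter window of Cd200, at chr16:45409004-45409303 on the minus strand, is shown because this gene had the second smallest p of the 10, and its capitals mark a match to the cAMP response half-site, written on the reverse strand as CGTCA, with its first base at position −200.
Cd200: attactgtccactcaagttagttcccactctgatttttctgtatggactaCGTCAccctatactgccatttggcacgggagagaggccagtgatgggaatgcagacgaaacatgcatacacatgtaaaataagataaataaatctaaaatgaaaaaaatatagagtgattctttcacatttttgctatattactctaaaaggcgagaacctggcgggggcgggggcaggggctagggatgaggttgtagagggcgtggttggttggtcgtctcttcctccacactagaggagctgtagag
The full cAMP response element was in none of the 6 windows, and 20.8% of all windows hold the half-site.

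Slamf1, the SLAM receptor that recruits the adaptor SAP, had log2 intensities of 7.73, 7.26 and 7.12 in Crebbp-deleted samples, against 5.81, 7.58 and 7.87 in Crebbp-floxed samples, at probe set 1425570_at. Floxed sample 1 stood at least 1 log2 unit below every other mouse, and the other floxed mice lay within or above the deleted range. The log2 difference was 0.28 ± 0.50 (SE), with a 95% interval from −0.88 to 1.45 (limma adjusted p = 0.847), and it came to −0.36 when floxed sample 1 was left out. The same mouse was the lowest at the other probe sets, 1425569_a_at and 1425571_at, whose log2 differences were 0.16 and 0.34 (limma adjusted p = 0.910 and 0.735).

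The spread between mice of a group was wide for these genes. The within-group SD, pooled over both groups, was 0.85 for Cd83, 0.82 for Slamf1, 0.58 for Cd80 and 0.53 for Cd86, where the median over all genes was 0.15 log2 units. For Cd274, Cd200, Cd69, Icosl and Pdcd1lg2 it lay between 0.32 and 0.35, and for Cd70 it was 0.14. In 9 of the 10 genes, all but Cd70, it exceeded 0.30, the value that 10% of all genes exceed. Among the 10589 genes with a mean above the median of probe set means, the SDs of these 9 genes lay between percentile 88.6 for Pdcd1lg2 and percentile 98.8 for Cd83. The absolute log2 differences of the 10 genes had a median of 0.29, against 0.12 over all genes. No mouse was extreme throughout: deleted sample 1 had the highest value of 3 genes (Cd80, Cd69 and Cd83), and floxed sample 1 had the lowest value of 5 (Cd69, Cd274, Icosl, Cd70 and Slamf1) and the highest value of 1 (Pdcd1lg2).

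**Figure D3:**
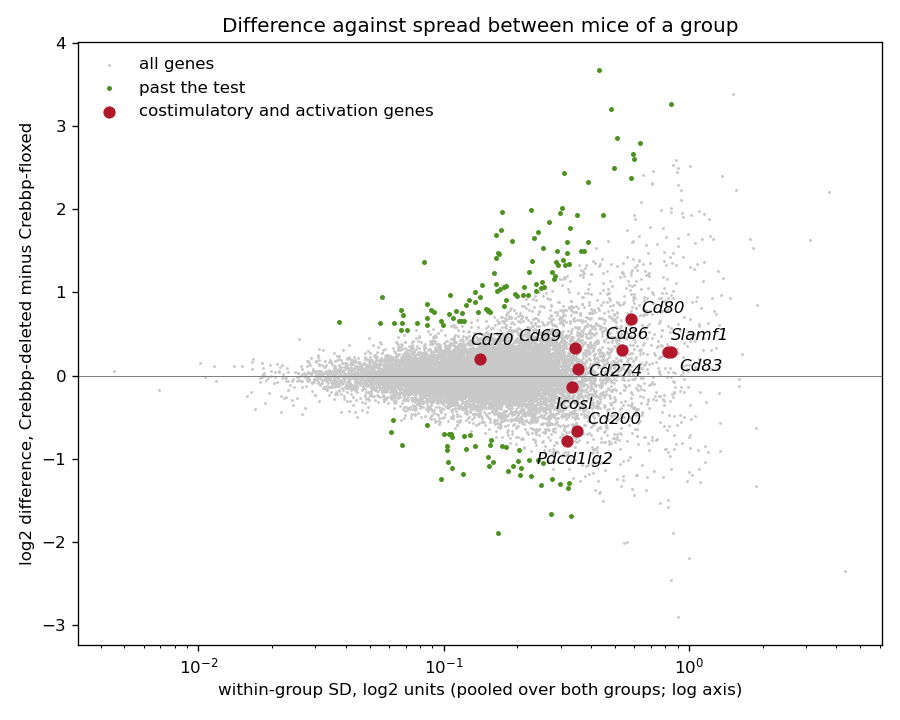
Log2 difference, Crebbp-deleted minus Crebbp-floxed (y axis), against the within-group SD in log2 units (x axis, log scale), 1 point per gene, with all 18193 genes in grey, the 142 past the test in green and the 10 costimulatory and activation genes in red. Of the 10, 9 lie to the right of most genes, with SDs above 0.30, and Cd70 lies at 0.14.

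The sexes of the mice were unequal between the groups. Xist and Y-linked genes marked 2 deleted and 1 floxed mice as male and 1 deleted and 2 floxed mice as female. With sex as a term 0 of the 10 genes passed limma, and the log2 differences were −0.91 for Pdcd1lg2 (adjusted p = 0.139), −0.62 for Cd200 (adjusted p = 0.348) and 0.72 for Cd80 (adjusted p = 0.504). Pdcd1lg2 had a log2 difference of −1.01 within males and −0.80 within females, and Cd200 one of −1.02 within males and −0.23 within females. Cd86 and Slamf1 had opposite signs by sex. Cd86 had a log2 difference of −0.62 within males and 1.19 within females, and Slamf1 one of 1.62 within males and −0.47 within females, neither past the threshold. Such opposite signs, with every mouse on its side, occurred in 3 of the 10 genes (these and Icosl) and in 15.3% of all genes. Each of these comparisons rests on a lone mouse, floxed sample 1 among males and deleted sample 2 among females.

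**Figure D4:**
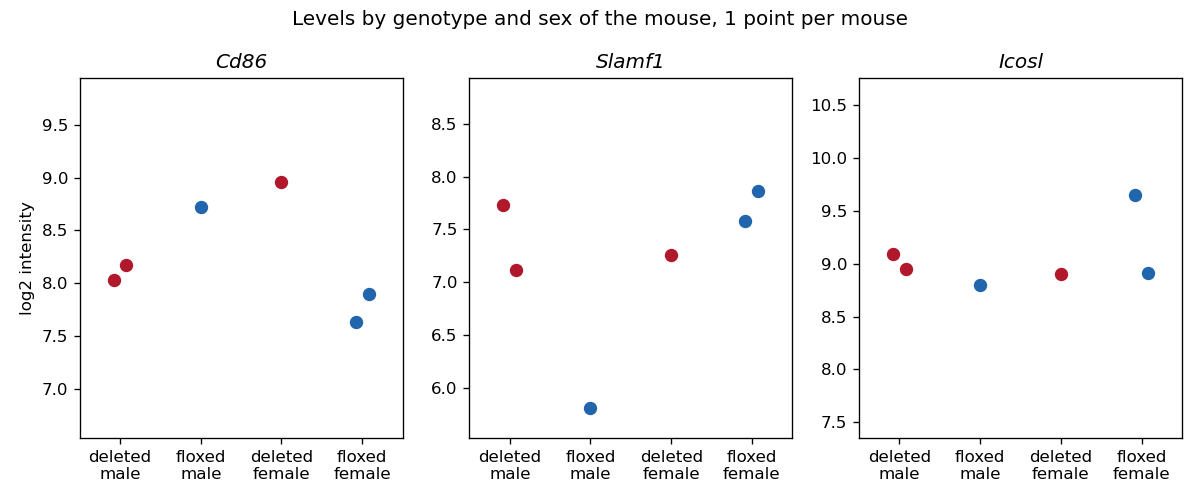
Log2 intensity (y axis) of Cd86, Slamf1 and Icosl by genotype and sex (x axis), 1 point per mouse, with Crebbp-deleted in red and Crebbp-floxed in blue. For Cd86 both deleted males lie below the floxed male and the deleted female lies above both floxed females, and for Slamf1 the order is the other way in each sex; for Icosl the females differ by almost nothing at the nearest points.

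Genes that act with these molecules were examined in 5 lists, chosen with earlier results of these data known. The shares given for these lists, here and below, are therefore descriptions, and no test of the lists was run. Of their 54 measured genes 0 passed limma, and 15 reached an unadjusted p under 0.05, which is 27.8% of the lists' genes where 14.8% of all genes reached it. The median log2 difference of the 54 was 0.11, with 35 positive. The smallest adjusted p was 0.056, that of Nfatc1.

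Among 9 measured receptors and partners of the surface molecules, all 9 differences were positive (53.4% of all genes were), with a median of 0.24. They ran from 0.02, nearly no difference, to 1.48 log2 units, and the groups did not overlap in 4 (21.2% of all genes). The means of 5 of the 9, Cd28 among them, lay below the median of probe set means, so the sizes of their differences are uncertain as for Cd70. Cd28, the stimulatory receptor of CD80 and CD86, had log2 intensities of 4.13, 5.09 and 5.65 in Crebbp-deleted samples, against 4.02, 2.87 and 3.53 in Crebbp-floxed samples (limma adjusted p = 0.164). Ctla4, their inhibitory receptor, had 5.34, 5.38 and 5.07 in deleted samples, against 4.54, 3.56 and 4.75 in floxed samples (limma adjusted p = 0.181). Rgmb, a binding partner of PD-L2, had 6.37, 6.26 and 6.33 in deleted samples, against 4.88, 5.07 and 6.02 in floxed samples (limma adjusted p = 0.157). In each of these 3 genes all deleted mice lay above all floxed mice. Cd28 is also in the T cell marker list, of which 0 of 8 measured genes passed the test and whose summed intensities overlapped between the groups. Of these 8 genes 6, Cd28 among them, had positive differences, with a median of 0.27 over the 8. The T cell receptor complex genes were unequal. Cd3d and Cd3g each differed by 0.50 (limma adjusted p = 0.386 and 0.423) and Cd3e by −0.05 (limma adjusted p = 0.890). The part of T cells in the Cd28 and Ctla4 values was not tested.

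Of 11 other ligands and receptors of the B7 and TNF families 7 differences were positive, with a median of 0.14. Tnfsf9, the 4-1BB ligand, which lies beside Cd70 on chromosome 17, had log2 intensities of 5.35, 4.74 and 5.54 in deleted samples, against 3.37, 4.25 and 4.24 in floxed samples (log2 difference 1.26, limma adjusted p = 0.108). Its floxed values all lie below the median of probe set means, so the size of this difference is uncertain. Vsir, the inhibitory B7 family member VISTA, differed by 0.73 log2 units (limma adjusted p = 0.134), and Tnfsf13b, the survival factor BAFF, one of 0.50 (limma adjusted p = 0.176). Tnfsf13b, with a mean of 3.74, is another gene below the median of probe set means. Myeloid cells express Vsir and Tnfsf13b strongly, and macrophage markers had a median log2 difference of 1.48 in the same samples. Their part in these values was not tested.

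The 8 other SLAM family genes measured had a median log2 difference of 0.13. Cd84, a SLAM receptor that follows Slamf1 in gene order on chromosome 1, differed by −0.47 ± 0.09 log2 units (SE, limma adjusted p = 0.072), with 7.99, 7.81 and 7.98 in deleted samples, against 8.43, 8.35 and 8.42 in floxed samples. Ly9, another SLAM receptor of B cells, had a difference of −0.19 (limma adjusted p = 0.414), and Slamf8, which macrophages express, one of 0.83 (limma adjusted p = 0.348). The mean of Slamf8, 4.28, is just below the median of probe set means, so the size of its difference is uncertain. The groups did not overlap in 3 of the 8 genes, Cd84 and Ly9 among them, where 21.2% of all genes had such groups. In each of these 3 all deleted mice lay below all floxed mice, whereas the groups of Slamf1 and Slamf8 overlapped.

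Other activation markers, 10 measured genes, had a median log2 difference of 0.18, with 7 positive. Il4ra, the interleukin-4 receptor chain, differed by −0.41 ± 0.09 log2 units (SE, limma adjusted p = 0.099), with all deleted mice below all floxed mice. The transferrin receptor gene Tfrc had one of −0.38 (limma adjusted p = 0.320), and the death receptor gene Fas one of 0.67 (limma adjusted p = 0.395).

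Among 16 transcription factors that induce costimulatory genes 9 differences were negative, with a median of −0.10. Nfatc1, a calcium-regulated factor downstream of the B cell receptor, had log2 intensities of 8.39, 8.40 and 8.56 in deleted samples, against 9.61, 9.04 and 9.32 in floxed samples, a difference of −0.87 ± 0.15 (SE, limma adjusted p = 0.056). The NF-kB subunit genes Nfkb2 and Relb, of the branch that CD40 and BAFF receptors use, had log2 differences of −0.44 (limma adjusted p = 0.099) and −0.52 (limma adjusted p = 0.149). The groups did not overlap in 5 of the 16, these 3 included, where 21.2% of all genes had such groups. Differences of the other sign were also found in this list, and Jun, an AP-1 subunit named after its values were seen, had one of 0.77 with overlapping groups (limma adjusted p = 0.235).

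**Figure D5:**
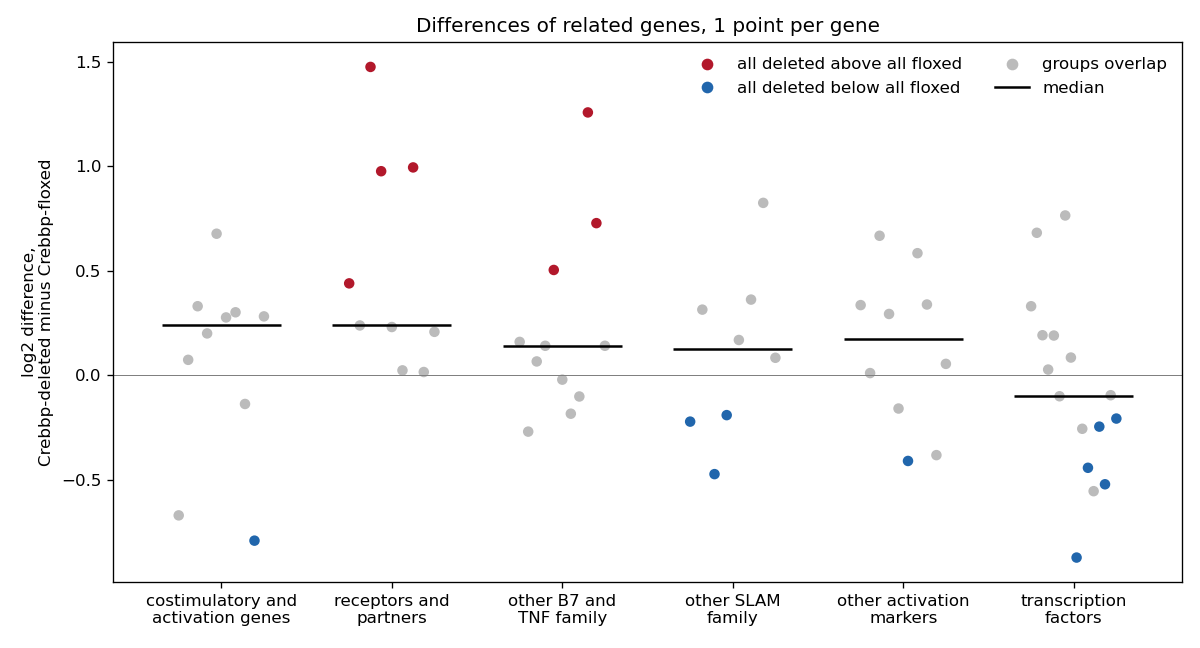
Log2 difference, Crebbp-deleted minus Crebbp-floxed (y axis), for the 10 costimulatory and activation genes and the 5 lists of related genes (x axis), 1 point per gene, with the list's median as a black line. Red marks genes with all deleted mice above all floxed mice, blue the opposite and grey an overlap, and no gene shown passed the test.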

How the data were processed

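Affymetrix arrays of 6 mice were analysed from the deposited table of intensities. The authors made each intensity with RMA, per the submitters' processing notes, which as used here give no version. The deposited range, 2.96 to 17022, is that of linear intensities although RMA works in log2, so log2 was taken, with no further normalization. Of 45101 probe sets 64 are the manufacturer's controls and were left out. Of the rest 34945 had 1 gene symbol, and probe sets with several symbols (932) or none (9160) were not named. A gene with several probe sets was represented by that of the highest mean, which left 18193 genes, and no filter on dim signals was applied.

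The comparison was a two-sided limma fit (lmFit and eBayes, limma 3.58.1, R 4.3.3) without covariates, as Crebbp-deleted minus Crebbp-floxed, with Benjamini-Hochberg adjustment over all genes and a threshold of 0.05. Intervals are at 95% from the same fit. All probe sets were also tested singly. The fit was tested on simulated data. A permutation of 3 against 3 cannot give a p under 0.1, so none was made. The series' design text gives 3 mice per strain. The members and lists were chosen with earlier results of these data known. Named are all 10 members, Crebbp, and of each related list the genes past the threshold or otherwise the 3 with the smallest p; marker genes are named beside results only. Alternatives covered normalization, filters, a pseudocount of 16, probe set choice, variance models, the replicate number as a block, sex, and leaving out each mouse. Deviations from group means of same-numbered mice of the 2 groups correlated at 0.03, 0.10 and 0.01 over genes, and those of differently numbered mice at −0.12 to 0.08. With 3 mice per group these values cannot decide whether mice were paired. Plots used matplotlib 3.10.9 (Python 3.11.15).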

Additional observations from a re-analysis of the deposited data

Results flagged for a closer look

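The log2 difference between Crebbp-deleted and Crebbp-floxed mice had opposite signs in the sexes, with every mouse on its side, in 3 of the 10 genes, where 15.3% of all 18193 genes showed such a pattern. The sexes were read from the arrays and are not groups of the study. The difference within males minus that within females was −1.81 for Cd86, 2.09 for Slamf1 and 0.60 for Icosl. In limma's test of this interaction 0 of 18193 genes passed, and the adjusted p was 1.00 for each of the 3 genes (unadjusted p = 0.0007 for Cd86, 0.0033 for Slamf1 and 0.234 for Icosl). The within-sex comparisons set 2 deleted males against 1 floxed male and 1 deleted female against 2 floxed females. For Icosl the deleted female, at 8.90, lay just under the nearer floxed female, at 8.91.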

How the results depend on the processing

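The count of genes past the threshold, 142, was 222 with trend and robust variances, 291 with array weights, 449 at an adjusted p under 0.1, 37 with sex as a term, and 0 within females and 0 within males, where limma had 1237 and 1798 genes at an unadjusted p under 0.05. Leaving out 1 mouse gave 0 to 226 genes. The lowest came without floxed sample 1 (1990 at an unadjusted p under 0.05), followed by 16, 45 and 62 without deleted samples 1, 2 and 3, and the highest without floxed sample 3. Of the 10 costimulatory and activation genes 0 passed under each alternative, except that leaving out mice gave 0 to 1, with Cd80 passing without floxed sample 3. With the replicate block 126 genes and 0 of the 10 passed, and it moved no call of the 10. In that fit the limma adjusted p was 0.069 for Pdcd1lg2 and 0.088 for Cd200. By the labels the mice share only a number. Of 179 values of the 10 genes under alternatives 167 kept sign and side of the threshold and 11 changed sign, and the cause was not tested. Within males the difference was −0.62 for Cd86, −0.0019 for Cd83 and 0.23 for Icosl, and within females it was −0.19 for Cd274 and −0.47 for Slamf1. Leaving out 1 mouse gave −0.085 to 0.83 for Cd83, −0.12 to 0.32 for Cd274, −0.30 to 0.13 for Icosl, and −0.36 to 0.67 for Slamf1. The filter on dim genes removed Cd70. Signal near background limits Cd70 and 3 further probe sets.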
